A study of Mus musculus with 2688 samples.

Results

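Microglia, the macrophages that live within brain and spinal cord tissue, were compared between the embryonic cerebellum and the cerebellum at 3 weeks of age. The cells were taken by their labels: wells whose replicate label names cerebellum of the unmodified (WT) animals at 1 of these ages, with at least 500 detected genes and at most 20% of counts from the mitochondrial genome. They were 345 of the 2402 kept cells of the series, in 7 of its 51 region samples, a region sample being the cells of 1 region and replicate. The 4 embryonic samples held 42, 47, 45 and 44 cells and the 3 samples of 3 weeks held 62, 61 and 44. All mice were of the CD1 strain and the labels name no treatment. The labels give the embryonic group no day of gestation, and they name no sex. The series counts its replicates as mice and took several regions from the same mice. Cells had been isolated on a density gradient, sorted with antibodies to CD11b, CD45, Ly6C, Ly6G and CD206 into 384-well plates, 1 cell per well, and read as full-length SmartSeq2 libraries. All embryonic cells lay on 1 plate and all cells of 3 weeks on another, so age and plate cannot be told apart.

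Microglia descend from macrophage progenitors of the yolk sac, enter the brain before birth and multiply there. Their survival depends on the receptor CSF1R, and TGF-beta signalling maintains the gene programme that distinguishes them from other macrophages, which includes the purine receptor P2RY12 and the membrane protein TMEM119. In the mouse cerebellum the weeks after birth are the time when granule neurons are produced and when synapses on Purkinje cells are formed and pruned.

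The defining microglia markers were present in every sample. The 12 microglia markers together made up 43192 to 50803 CPM (counts scaled by the library size of the summed cells) in the embryonic samples and 68928 to 73854 at 3 weeks. Markers of border macrophages summed to 107 to 262 CPM in embryonic samples and 39.4 to 103 at 3 weeks, mostly from Mrc1, with Cd209f at 0. Monocyte markers summed to at most 50.3 CPM in any sample, with Ly6c2, Hp and Ifitm6 at 0. Of 11 neutrophil markers only Csf3r reached 10 CPM in a sample, and of 12 lymphocyte markers the immunoglobulin gene Ighm led. Neuron markers summed to 10.6 to 110 CPM in the embryonic samples and 20.7 to 58.6 at 3 weeks, and astrocyte and Bergmann glia markers to 50.9 to 64.8 and 85.3 to 298. Their part in the results below was not tested. The samples held 9733523 to 18884413 gene counts, with medians per cell of 188426 to 400564, against 3107 to 20404 in the 8 blank wells of the same plates.

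The replicates of the ages differed in a way that no label states. Xist, the noncoding RNA that silences an X chromosome in female cells, stood at 379, 75.6, 236 and 430 CPM in the embryonic samples and 1204, 1203 and 1305 CPM at 3 weeks. The Y-linked genes Eif2s3y and Ddx3y stood at 81.8, 62.4, 79.9 and 32.8 CPM and 29.2, 67.7, 41.1 and 30.9 CPM in the embryonic samples, and both had 0 reads in all 3 samples of 3 weeks. Cell by cell the reads were nearly exclusive. In the 4 embryonic samples 18, 9, 10 and 22 cells had reads of Xist and of none of 4 Y-linked genes (Ddx3y, Eif2s3y, Kdm5d and Uty), and 17, 25, 21 and 14 cells had Y-linked reads and none of Xist. A single embryonic cell had both. At 3 weeks 59, 57 and 41 cells had Xist alone, 4 cells had both and 0 of 167 had Y-linked reads alone. For the pooled cells this allows a share of up to 1.8%, which does not cover the spread between samples. Every embryonic sample thus held cells of both kinds, and no 3-week sample held a cell with Y-linked reads alone. An embryonic sample therefore cannot be taken as the cells of 1 mouse, although the series counts its replicates as mice. A call that ended without 1 of the samples was that of Xist (adjusted p up to 0.0618, without 3-week replicate 3).

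**Figure D1:**
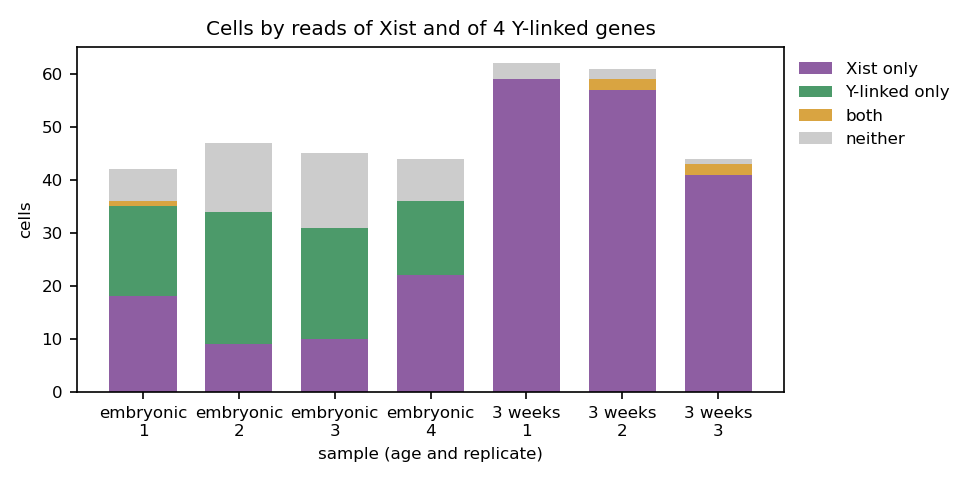
Number of kept cells (y axis) in each of the 7 samples (x axis), split by whether a cell had reads of Xist, of the 4 Y-linked genes, of both or of neither. The embryonic bars hold 14 to 25 cells with Y-linked reads only and the bars of 3 weeks hold 0.

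The level of 1233 of 13185 tested genes differed between the ages, which is 9.35% (edgeR quasi-likelihood test, Benjamini-Hochberg adjusted p under 0.05). Of all genes tested 498, or 3.78%, were higher at 3 weeks and 735, or 5.57%, were lower. The median change of all genes was log2 0.07. Single samples moved the count, which was 781 without 3-week replicate 1 and 797, 731 and 813 without embryonic replicates 1, 2 and 3. The comparison was repeated in cells with Xist and without Y-linked reads at both ages, a setting chosen after seeing the data. There 208 genes were called, 194 of them among the 1233, with 59 embryonic cells in place of 178. It reused cells of the main comparison, so it is no independent check. The part of sex in single genes was not tested.

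Embryonic cells had more detected genes and more gene counts per spike-in count. A cell at 60142 counts had a median of 3611, 3196, 3345 and 3303 genes in the embryonic samples and 2222, 2217 and 2203 at 3 weeks, or 3364 ± 177 (SD, n = 4) against 2214 ± 10.1 (n = 3; exact two-sided permutation p = 0.0286, the smallest that 35 splits allow, adjusted p = 0.0429 over 3 measures). Without thinning the medians ran from 3732 to 4402 and from 2507 to 2591. Gene counts per count of the ERCC spike-in RNA, whose amount per well the sources used here do not state, had medians of 1054, 921, 1024 and 880 against 462, 457 and 390, a ratio 2.22 times higher in embryonic cells (exact permutation p = 0.0286, adjusted p = 0.0429). The mitochondrial share of counts was 3.98%, 4.42%, 4.58% and 2.76% against 1.9%, 1.49% and 1.31%, without overlap (exact permutation p = 0.0571, n = 4 and 3). All CPM values are relative to the RNA of a sample. With library sizes taken from the spike-ins instead, the median of all genes moved to log2 -0.54 and the calls to 153 higher and 1392 lower. A rise in CPM is therefore a rise in the share of a cell's RNA. Of the rises named here, Adgrg1, Slc2a5, P2ry12, Golm1, Olfml3, Cx3cr1, Siglech, Csf1r, Nfia, Sall3, Rel, Zfhx3, Mef2a, Irf5, Irf2, Bhlhe41, Mef2c, Itgb8, Tgfbr2, Inpp5d, Cd14, Elmo1, Fcgr1, Itgb2, Mertk, Irak2, Ifngr1, Osm, H2-T23, H2-DMb1, Cdkn1b, Btg2, Hsp90b1, Tcirg1, Trf, Kcnj2 and Xist were not called with the spike-in library sizes, which also assume equal spike-in RNA per well. All falls named here were called there too.

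**Figure D2:**
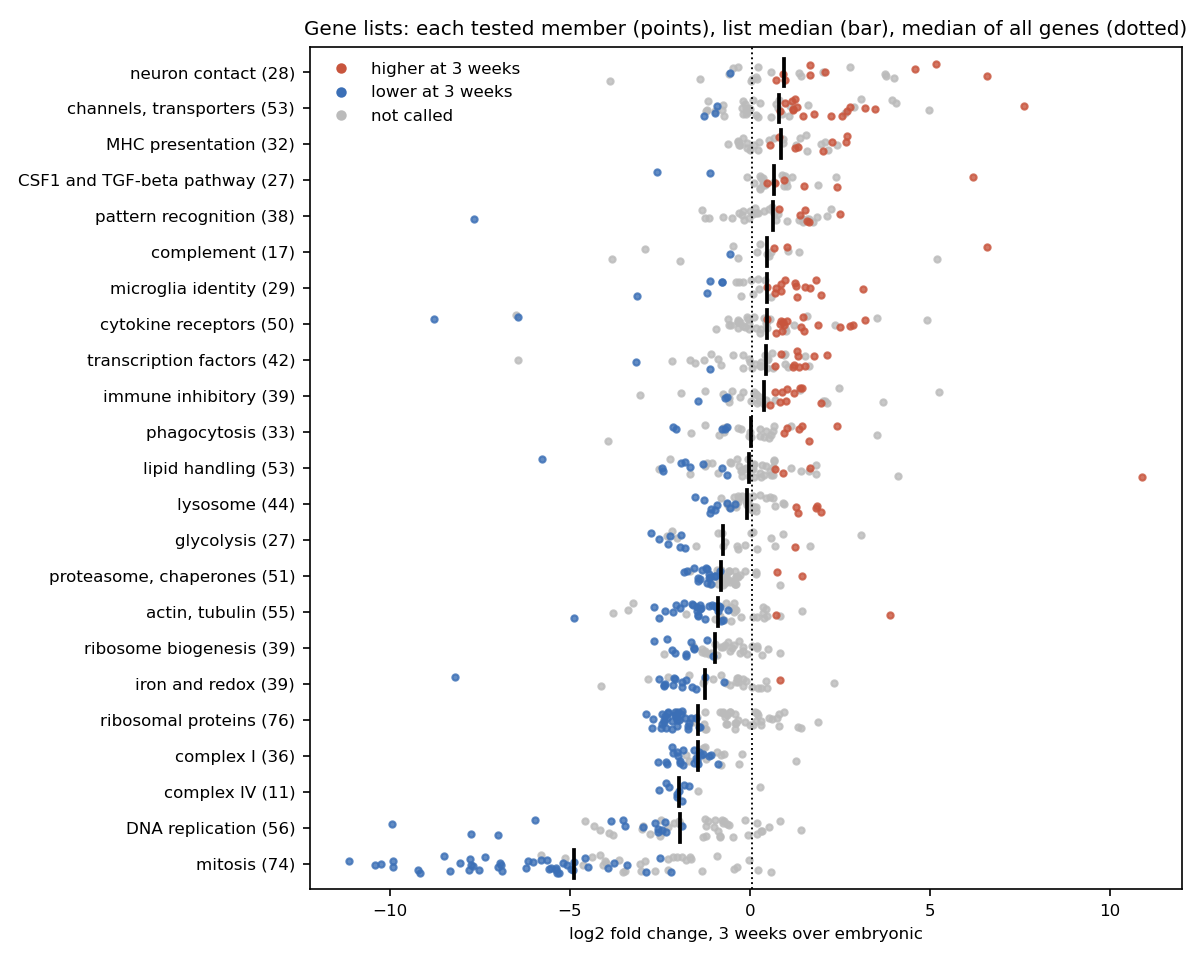
Log2 fold change from embryonic to 3 weeks (x axis) of each tested member of 23 gene lists (rows, number tested in brackets), coloured by call; black bars are list medians, the dotted line is the median of all genes, and genes with 0 reads at an age are drawn at the bound that 3 reads allow. Mitosis genes lie farthest to the left with a median of -4.89, and neuron contact genes have the highest median of the lists drawn, 0.94; lists not drawn include the interferon response, with 1.02.

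Genes of cell division fell, those of mitosis the most in number. Of 74 tested mitosis genes 44 were lower at 3 weeks and 0 higher, against 5.57% lower among all genes, and the list's median was log2 -4.89. Tacc3, which stabilises spindle microtubules at centrosomes, stood at 156, 116, 47.8 and 115 CPM in the embryonic samples and had 0 reads in all 3 samples of 3 weeks, at least 1199-fold lower (bound from 3 reads over the group; adjusted p = 0.000361). Aurkb, the kinase of the chromosomal passenger complex, stood at 121, 118, 47.5 and 65.8 CPM and then also had 0 reads, at least 971-fold lower. The kinase gene Aurka and Cdc20, the activator of the anaphase-promoting complex, had 0 reads at 3 weeks too, from 61.6, 91.6, 23.3 and 32.3 and 79.2, 173, 12.8 and 83.3 CPM. Top2a, the topoisomerase that untangles chromosomes, stood at 140, 192, 140 and 152 CPM in the embryonic samples and 0.157, 1.12 and 0 CPM at 3 weeks, a 360-fold fall (log2 -8.49 ± 0.84, SE; adjusted p = 0.000456). The condensin gene Ncapd2 had 1 read at 3 weeks and was 2884-fold (95% counting interval 518 to 113950) lower. The groups did not overlap for any of these 6 genes, but all 6 met a naming rule that required this. Of all 13185 tested genes 3461 did not overlap. The embryonic samples varied widely, as for Cdc20.

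The reads came from a minority of embryonic cells. After thinning Top2a was read in 19% ± 4.02 of embryonic cells and 0 of 136 pooled 3-week cells (a share of up to 2.21%). Mki67, the proliferation marker, was read in 16% ± 5.17 of embryonic and 0.633% ± 1.1 of 3-week cells. At least 5 of 20 G2/M genes were read in 10, 11, 7 and 7 embryonic cells, 35 of 178, and in 0, 1 and 1 cells of 3 weeks, 2 of 167. With these cells removed 849 genes were called, 806 of them among the 1233. The calls of Top2a, Aurka, Aurkb, Mki67 and Cdk1 ended in that setting, and that of Tacc3 did not. Cells were removed for their reads of G2/M genes, so lost calls of division genes follow in part from that choice.

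Of 56 tested genes of DNA replication 15 were lower and 0 higher, with a median of log2 -1.95. Of the 6 subunits of the MCM helicase, which opens DNA at origins, 4 fell. Mcm5 stood at 249, 291, 234 and 295 CPM in the embryonic samples and 20.5, 10.8 and 23.9 CPM at 3 weeks, a 14.5-fold fall (log2 -3.86 ± 0.32, SE; adjusted p = 0.000206). Mcm6 stood at 312, 342, 285 and 318 CPM in the embryonic samples and 24.3, 27.6 and 69.8 CPM at 3 weeks, a 7.76-fold fall. Mcm2 fell 11.1-fold and Mcm3 5.47-fold. With all 51 samples in the fit the calls of Mcm2, Mcm3, Mcm5 and Mcm6 ended. Mcm4 stood at 150, 113, 198 and 139 CPM in the embryonic samples and 0, 30.1 and 0.104 CPM at 3 weeks (adjusted p = 0.16) and Mcm7 at 119, 93.6, 86.8 and 93.2 CPM in the embryonic samples and 62.8, 32.5 and 24.3 CPM at 3 weeks (adjusted p = 0.0617), neither called. All 6 helicase genes had reads in some sample of 3 weeks. Chaf1a, which loads histones onto new DNA, and Pole, the leading-strand polymerase, went from 38.3 ± 10.6 to 0.031 ± 0.0537 CPM and from 21.4 ± 9.19 to 0.093 ± 0.161 CPM (SD, n = 4 and 3), read ratios of 1268-fold (95% counting interval 227 to 50100) and 230-fold (95% counting interval 78.5 to 1117). Uhrf1, which recruits the maintenance DNA methyltransferase, went from 67.4 ± 27.8 to 0.553 ± 0.879 CPM, and Rrm2, the regulated subunit of ribonucleotide reductase, from 99.4 ± 50.7 to 0.131 ± 0.163 CPM. Of 34 genes of nucleotide synthesis 5 fell and 0 rose, with Nme1, a nucleoside diphosphate kinase, from 76.6 ± 19 to 13.2 ± 3.66 CPM, and Tk1, thymidine kinase, from 31.7 ± 16.2 to 2.05 ± 1.51 CPM. Of 52 genes of histones and chromatin 9 fell, with the variants H2afx and H2afv from 46.1 ± 24.7 to 1.6 ± 0.82 CPM and 107 ± 18 to 18 ± 9.72 CPM. Of 44 genes of cell cycle control 4 fell and 2 rose, shares near the 5.57% and 3.78% of all genes, and 9 were lower and 0 higher on the spike-in scale. The falls included Cdk4, the kinase of the G1 phase, from 467 ± 70.6 to 102 ± 40.5 CPM, and the rises were Cdkn1b, the CDK inhibitor p27, from 12.3 ± 1.07 to 49 ± 5.01 CPM, and Btg2, an antiproliferative gene, from 130 ± 38.2 to 251 ± 18 CPM. On the spike-in scale Cdkn1b and Btg2 were not called (adjusted p = 0.0871 and 0.578). Leaving out 1 sample ended the call of Mcm3 (adjusted p up to 0.0506, without 3-week replicate 1), Tk1 (adjusted p up to 0.0694, without 3-week replicate 1), Cdkn1b (adjusted p up to 0.0576, without 3-week replicate 1) and Btg2 (adjusted p up to 0.124, without 3-week replicate 3).

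Short motifs recur in many promoters of these falling genes, and 7 are shown as examples. Each of the 7 holds a CHR or E2F match, which not every promoter matched for these genes does. Genes of mitosis are classically repressed outside of division through the CHR element (TTTGAA or TTCGAA) and near CCAAT boxes, and genes of replication through E2F sites (here TTTCCCGC, TTTGGCGC or TTCCCGCC). Motifs were searched on both strands of 300 bases per promoter, 250 before and 50 after the start, in RefSeq promoters of GRCm38.p6. Each line gives the 120 bases before the annotated start, 5′ to 3′ on the gene's strand, with CHR, E2F and CCAAT matches on either strand in capitals.
Cdc20 (chr4:118437344-118437463, minus strand): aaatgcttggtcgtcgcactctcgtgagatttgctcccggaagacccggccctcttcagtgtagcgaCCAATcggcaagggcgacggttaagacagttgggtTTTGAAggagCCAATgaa
Cdk1 (chr10:69352913-69353032, minus strand): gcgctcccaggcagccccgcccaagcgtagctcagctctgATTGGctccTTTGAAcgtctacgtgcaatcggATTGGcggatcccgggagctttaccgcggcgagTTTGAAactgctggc
Ube2c (chr2:164769809-164769928, plus strand): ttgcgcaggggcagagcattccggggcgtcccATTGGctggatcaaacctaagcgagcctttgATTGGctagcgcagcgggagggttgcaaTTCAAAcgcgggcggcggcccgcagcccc
Kif11 (chr19:37376262-37376381, plus strand): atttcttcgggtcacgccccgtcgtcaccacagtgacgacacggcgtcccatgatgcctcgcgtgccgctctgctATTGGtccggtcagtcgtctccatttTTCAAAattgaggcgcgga
Mcm6 (chr1:128359706-128359825, minus strand): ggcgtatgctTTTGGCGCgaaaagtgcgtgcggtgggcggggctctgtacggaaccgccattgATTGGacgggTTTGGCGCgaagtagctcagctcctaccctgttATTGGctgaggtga
Chaf1a (chr17:56040296-56040415, plus strand): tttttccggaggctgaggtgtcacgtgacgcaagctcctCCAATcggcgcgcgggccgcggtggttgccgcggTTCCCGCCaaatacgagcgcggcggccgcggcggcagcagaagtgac
Uhrf1 (chr17:56303217-56303336, plus strand): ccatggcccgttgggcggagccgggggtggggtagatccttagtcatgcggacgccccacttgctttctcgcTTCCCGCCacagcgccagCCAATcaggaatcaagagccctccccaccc
The CHR element was found in 76.3% of the 38 promoters matched for the 44 called mitosis genes, against 19.4% of all 27025 promoters of the table, and a CCAAT box in 84.2% against 37.9%. An E2F site was found in 7 of the 12 promoters matched for the 15 called replication genes, 58.3% against 3.3%, and the CHR element in 16.7% of them. Of the 7 genes, Kif11 (adjusted p up to 0.0525, without embryonic replicate 1) lost its call with 1 sample left out. In Cdc20 the CHR element began 18 bases before the start and in Kif11 19. Mcm6 held E2F matches 110 and 47 bases before its start, and Chaf1a and Uhrf1 held 1 each, 47 and 48 bases before. A match is a description of these letters and not a bound site. The same search was void for ribosomal protein genes, identity genes, all genes tested and all rising or falling genes, since fewer than 80% of each set had a promoter in the table.

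Genes of protein synthesis and respiration were also lower in broad sets. Among all genes 5.57% were lower and 3.78% higher, beside which the counts of this paragraph stand. Of 76 tested ribosomal protein genes 33 were lower and 0 higher, with a median of log2 -1.43. Rps26 stood at 125, 135, 134 and 117 CPM in the embryonic samples and 14.8, 16.5 and 20.5 CPM at 3 weeks, a 7.42-fold fall (log2 -2.89 ± 0.28, SE; adjusted p = 0.000351), and Rpl32 fell 6.47-fold. Several ribosomal protein genes have near-identical processed copies, so reads can be lost to or gained from them. Of 39 genes of ribosome biogenesis and translation 11 fell, among them the nucleolar gene Npm1, from 257 ± 25.8 to 60.6 ± 2.43 CPM, and the elongation factor gene Eef1b2, from 715 ± 86.5 to 161 ± 20.2 CPM. Of the 78 nuclear genes of oxidative phosphorylation 50 were lower and 0 higher. By complex that was 22 of 36 for complex I, 9 of 14 for complexes II and III, 9 of 11 for complex IV and 10 of 17 for ATP synthase. Cox4i1, a subunit of complex IV, stood at 530, 740, 689 and 517 CPM in the embryonic samples and 107, 121 and 95.1 CPM at 3 weeks, a 5.74-fold fall. Of 7 tested protein genes of the mitochondrial genome 6 fell, with mt-Cytb from 7753 ± 1346 to 2532 ± 317 CPM. The level moved with the mitochondrial share of counts given above.

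Parts of glycolysis, of the proteasome and of the cytoskeleton were lower. Of 27 glycolysis genes 7 fell and 1 rose, against 5.57% and 3.78% of all genes. Pkm and Gpi1, encoding pyruvate kinase and glucose phosphate isomerase, fell 4.66-fold and 5.69-fold, and the rise was Slc2a5, the fructose transporter GLUT5, from 424 ± 143 to 1006 ± 151 CPM (adjusted p = 0.0151). Of 31 proteasome subunits 12 fell and 0 rose, and of 8 chaperonin subunits 3 fell. The 2 rises of the same list were chaperones of the endoplasmic reticulum. Hspa5, which encodes BiP, stood at 413, 489, 531 and 476 CPM in the embryonic samples and 1170, 1289 and 1463 CPM at 3 weeks, a 2.74-fold rise (adjusted p = 0.000303) that was also called on the spike-in scale, and Hsp90b1 went from 530 ± 39.6 to 899 ± 186 CPM. Of 55 genes of actin, tubulin and motility 28 fell and 2 rose. Cfl1, the actin-severing protein cofilin, stood at 921, 1081, 1032 and 820 CPM in the embryonic samples and 167, 143 and 150 CPM at 3 weeks, a 6.28-fold fall, and Actb, Tmsb4x and Tubb5 fell 2.79-fold, 4.13-fold and 5.73-fold. The rises included Arhgap22, a GTPase-activating protein for Rac, from 4.07 ± 3.09 to 60.7 ± 22.5 CPM. Leaving out 1 sample ended the call of Slc2a5 (adjusted p up to 0.0596, without 3-week replicate 3), Hsp90b1 (adjusted p up to 0.0872, without 3-week replicate 2) and Arhgap22 (adjusted p up to 0.0552, without 3-week replicate 1).

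Of the genes that mark microglia, 14 of 29 tested were higher at 3 weeks and 5 lower, against 9.35% called among all genes, with a median of log2 0.47. The rises were of unequal size. Selplg, the ligand of selectins, stood at 742, 629, 682 and 700 CPM in the embryonic samples and 5519, 6066 and 6791 CPM at 3 weeks and rose 8.9-fold (log2 3.15 ± 0.11, SE; adjusted p = 2.37e-06). Tmem119 stood at 1144, 1117, 1167 and 1271 CPM in the embryonic samples and 4228, 4089 and 5473 CPM at 3 weeks, a 3.91-fold rise. The purine receptor gene P2ry12 stood at 4364, 4726, 5075 and 4456 CPM in the embryonic samples and 8672, 9366 and 9371 CPM at 3 weeks and rose 1.96-fold (adjusted p = 0.000199). Csf1r rose 1.38-fold, from 10340 ± 1104 to 14292 ± 669 CPM. The groups overlapped for none of the 14 genes, and of all 13185 tested genes 3461 did not overlap. Cst3, encoding cystatin C, rose 3.55-fold. The orphan receptor Gpr34 and the ADP receptor P2ry13 rose 2.91-fold and 2.49-fold, and Cx3cr1, the receptor of the neuronal chemokine fractalkine, rose 1.67-fold. On the spike-in scale 7 of the 29 were called lower and 6 of the 14 were still called higher, among them Selplg, Tmem119, Cst3, Gpr34 and P2ry13. There P2ry12 was at log2 0.38 and Cx3cr1 at 0.13, not called, and Csf1r turned to -0.15. Adgrg1, Golm1, Olfml3, Siglech and Slc2a5 rose too. By adjusted p, calls lost when 1 sample was left out were those of Csf1r (adjusted p up to 0.0859, without 3-week replicate 2), Olfml3 (adjusted p up to 0.0677, without 3-week replicate 3), Siglech (adjusted p up to 0.0926, without 3-week replicate 2) and Slc2a5 (adjusted p up to 0.0596, without 3-week replicate 3).

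**Figure D3:**
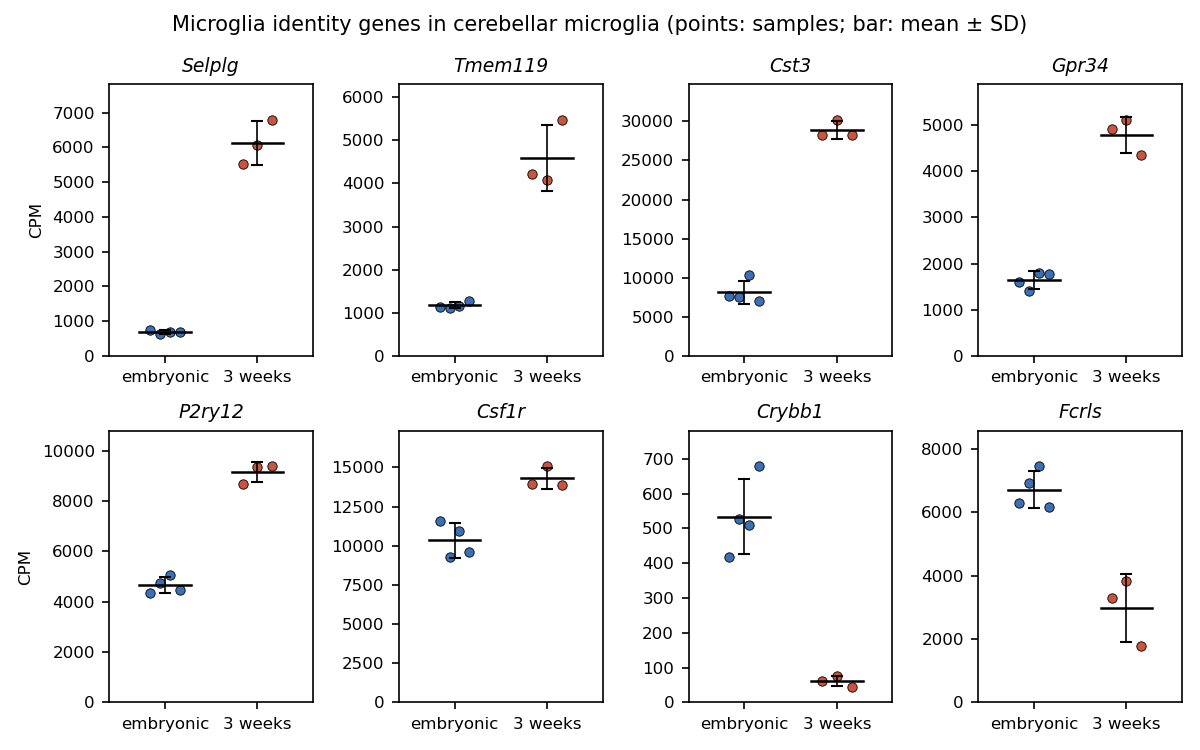
Level in CPM (y axis) of 8 microglia identity genes in the 4 embryonic and 3 samples of 3 weeks (x axis); points are samples and bars the mean ± SD. The ages do not overlap in any panel, which the naming rule required of most of these genes. Selplg has the largest ratio, with 629 to 742 CPM against 5519 to 6791, and Crybb1 and Fcrls lie lower at 3 weeks.

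The 5 identity genes that fell were Crybb1, Fcrls, Tyrobp, Fcer1g and Hpgds. Crybb1, a crystallin gene, stood at 419, 526, 510 and 678 CPM in the embryonic samples and 62.6, 75.6 and 45.4 CPM at 3 weeks, an 8.71-fold fall (log2 -3.12 ± 0.25, SE; adjusted p = 0.00017). It was read in 89.6% ± 3.07 of embryonic and 42% ± 5.28 of 3-week cells after thinning. Fcrls, an Fc receptor-like scavenger gene found in microglia, stood at 6296, 6929, 7443 and 6173 CPM in the embryonic samples and 3301, 3832 and 1765 CPM at 3 weeks, with 3-week replicate 3 the lowest. Tyrobp, which encodes the signalling adaptor DAP12 that serves TREM2 and other receptors, went from 1803 ± 223 to 840 ± 90.1 CPM, and the Fc receptor gamma chain Fcer1g from 858 ± 142 to 501 ± 2.49 CPM. Hpgds, a prostaglandin D synthase, went from 981 ± 78.8 to 581 ± 88.8 CPM. All 5 were called lower on the spike-in scale too. The call that ended without 1 of the samples was that of Fcer1g (adjusted p up to 0.0514, without 3-week replicate 1).

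Among transcription factors 10 of 42 tested were higher and 2 lower in CPM, against 3.78% and 5.57% of all genes. The falls were near that share. On the spike-in scale 0 were higher and 2 lower. Sall3, a relative of the microglial regulator Sall1, stood at 29.2, 22, 35.6 and 34.2 CPM in the embryonic samples and 104, 121 and 88.5 CPM at 3 weeks, a 3.45-fold rise (adjusted p = 0.00657). Sall1 itself stood at 375, 384, 308 and 362 CPM in the embryonic samples and 458, 487 and 493 CPM at 3 weeks, also without overlap, but was not called (adjusted p = 0.0959). Mef2a and Mef2c, partners in the adult microglial programme, rose 2.5-fold and 1.61-fold. The interferon regulatory factor Irf5 rose 2.34-fold, the NF-kappaB subunit Rel 2.86-fold, Nfia 4.39-fold, Zfhx3 2.55-fold, Irf2 2.32-fold and Bhlhe41 1.81-fold. The falls were Spi1, encoding the lineage factor PU.1, and Tfec, of the MiT family. Spi1 stood at 539, 569, 584 and 544 CPM in the embryonic samples and 231, 324 and 220 CPM at 3 weeks, a 2.16-fold fall (adjusted p = 0.00473), and Tfec at 64.7, 59.3, 23.5 and 21.8 CPM in the embryonic samples and 4.56, 8.46 and 1.04 CPM at 3 weeks. Of the 42 factors 30 were not called. With 1 sample left out, the call ended for Mef2a (adjusted p up to 0.0576, without 3-week replicate 2), Mef2c (adjusted p up to 0.0858, without 3-week replicate 3), Nfia (adjusted p up to 0.0658, without 3-week replicate 3), Zfhx3 (adjusted p up to 0.0878, without 3-week replicate 3), Irf2 (adjusted p up to 0.158, without 3-week replicate 3), Bhlhe41 (adjusted p up to 0.152, without 3-week replicate 2) and Tfec (adjusted p up to 0.106, without 3-week replicate 1).

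Of 22 tested fetal regulators, RNA-binding proteins, imprinted genes and chromatin proteins of fetal tissues, 3 fell and 0 rose, against 5.57% lower among all genes. Igf2bp3, an mRNA-binding protein of fetal cells, stood at 126, 70.2, 67 and 53 CPM in the embryonic samples and 11.4, 9.95 and 2.82 CPM at 3 weeks, a 9.8-fold fall (adjusted p = 0.00896). It was read in 39.2% ± 12.5 of embryonic and 4.97% ± 2.82 of 3-week cells. The chromatin protein gene Hmga1 stood at 27.9, 26.7, 36.7 and 22.7 CPM in the embryonic samples and 4.87, 3.44 and 2.72 CPM at 3 weeks, and Ndn, an imprinted gene, went from 2.39 ± 1.79 CPM to 0 reads. Lin28b, which blocks maturation of let-7 microRNAs, stood at 7.25, 22.4, 1.4 and 7.24 CPM in the embryonic samples and 1.26, 2.23 and 3.76 CPM at 3 weeks, with overlap, and was not called (adjusted p = 0.348). Leaving out 1 sample ended the call of Hmga1 (adjusted p up to 0.0516, without embryonic replicate 3) and Ndn (adjusted p up to 0.125, without 3-week replicate 2).

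Of 27 tested genes of the CSF1 and TGF-beta pathways 6 rose and 2 fell, against 3.78% and 5.57% of all genes. The falls were near that share, and on the spike-in scale 2 genes were higher and 2 lower. Tgfbr1, the signalling receptor of TGF-beta, stood at 644, 521, 600 and 602 CPM in the embryonic samples and 1512, 1853 and 1691 CPM at 3 weeks, a 2.85-fold rise (adjusted p = 0.00017), and Tgfbr2, its partner, rose 1.93-fold. Itgav, the integrin subunit that with ITGB8 releases active TGF-beta, stood at 26.8, 20.1, 40.3 and 35.1 CPM in the embryonic samples and 183, 157 and 148 CPM at 3 weeks, a 5.32-fold rise. Itgb8 itself stood at 0, 0.0544, 0.0636 and 0.281 CPM in the embryonic samples and 6.76, 13 and 4.07 CPM at 3 weeks. Inpp5d, the phosphatase SHIP1, rose 1.62-fold. Csf1, the ligand of CSF1R, stood at 88.5, 88.3, 59.6 and 136 CPM in the embryonic samples and 8.17, 20.7 and 17.7 CPM at 3 weeks, a 6-fold fall (adjusted p = 0.00852). It was read in 35.2% ± 7.17 of embryonic and 8.3% ± 2.4 of 3-week cells, and its call ended with all 51 samples in the fit (adjusted p = 0.206). On the spike-in scale Tgfbr1 and Itgav were still called higher. By adjusted p, calls lost when 1 sample was left out were those of Itgb8 (adjusted p up to 0.111, without 3-week replicate 2) and Inpp5d (adjusted p up to 0.0853, without 3-week replicate 2).

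Of 50 tested receptors for cytokines and chemokines 16 rose and 2 fell, against 3.78% and 5.57% of all genes, and 5 were higher and 4 lower on the spike-in scale. Ccr6, the receptor of CCL20, stood at 41.8, 16.8, 49.2 and 43.5 CPM in the embryonic samples and 323, 210 and 502 CPM at 3 weeks, a 9.12-fold rise (adjusted p = 0.00201). Il17ra, the IL-17 receptor, stood at 51.3, 27, 62.2 and 87.7 CPM in the embryonic samples and 419, 341 and 206 CPM at 3 weeks, a 5.64-fold rise. Il21r, Il7r and the interferon gamma receptor gene Ifngr1 rose 3.73-fold, 7.31-fold and 2.76-fold. The falls were the CXC receptors Cxcr2, at 43.9, 65.6, 37.1 and 82.9 CPM in the embryonic samples and 0, 0.372 and 0 CPM at 3 weeks, and Cxcr3, from 11.9 ± 2.42 to 0.132 ± 0.115 CPM. Cxcr2 was read in 18.4% ± 5.76 of embryonic cells and 0 of 136 pooled 3-week cells (a share of up to 2.21%). The 5 rises called on the spike-in scale included Ccr6, Il17ra, Il21r and Il7r. Calls that ended without 1 of the samples were those of Il7r (adjusted p up to 0.0618, without 3-week replicate 3) and Cxcr3 (adjusted p up to 0.0502, without embryonic replicate 1).

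Of 33 tested secreted signals 4 rose and 4 fell, against 3.78% and 5.57% of all genes. On the spike-in scale 2 were higher and 7 lower. Il6 had 0 reads in the 4 embryonic samples and stood at 11, 14.6 and 22.5 CPM at 3 weeks, at least 366-fold higher (bound from 3 reads over the group; adjusted p = 0.00793). It was read in 9.1% ± 6.72 of 3-week cells after thinning and in 0 of 8 blank wells, and with the counts as deposited it was not called (adjusted p = 0.1). Osm, oncostatin M, stood at 3.75, 2.29, 5.73 and 9.04 CPM in the embryonic samples and 33.3, 40 and 45.7 CPM at 3 weeks. Mif, macrophage migration inhibitory factor, stood at 37.5, 49.3, 43 and 43 CPM in the embryonic samples and 3.06, 3.63 and 12.6 CPM at 3 weeks, a 6.71-fold fall. With 1 sample left out, the call ended for Osm (adjusted p up to 0.0589, without 3-week replicate 3) and Mif (adjusted p up to 0.0737, without 3-week replicate 2).

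Sensors and inhibitory receptors had more rises than falls in CPM and more falls than rises on the spike-in scale, where pattern recognition had 2 higher and 4 lower and immune inhibition 3 and 4. Of 38 tested genes of pattern recognition 6 rose and 1 fell, against 3.78% and 5.57% of all genes. Tmem173, which encodes STING, the adaptor of the cytosolic DNA sensor, stood at 256, 213.7, 263 and 238 CPM in the embryonic samples and 1395, 1251 and 1471 CPM at 3 weeks, a 5.66-fold rise (log2 2.5 ± 0.13, SE; adjusted p = 3.12e-05). Its share of cells with a read was 57.5% ± 2.7 of embryonic and 95.5% ± 3.95 of 3-week cells. The ribosomal RNA sensor gene Tlr13 and the kinase gene Irak2 rose 2.89-fold and 3-fold, and Cd14, the coreceptor of TLR4, rose 3.14-fold. The fall was Lbp, which binds lipopolysaccharide, from 39.2 ± 46.7 to 0.186 ± 0.322 CPM. Of 39 genes of immune inhibition 10 rose and 3 fell. Lair1, an inhibitory collagen receptor, stood at 272, 310, 283 and 167 CPM in the embryonic samples and 932, 1015 and 1101 CPM at 3 weeks, a 3.94-fold rise, and Vsir, encoding VISTA, at 1424, 1341, 1504 and 1107 CPM in the embryonic samples and 2887, 3876 and 3781 CPM at 3 weeks, a 2.62-fold rise. Cmtm6, which stabilises PD-L1, rose 2.72-fold, and Lst1 fell 2.7-fold. Tmem173, Tlr13, Lair1, Vsir and Cmtm6 were also called higher on the spike-in scale. Leaving out 1 sample ended the call of Cd14 (adjusted p up to 0.065, without 3-week replicate 3) and Lbp (adjusted p up to 0.0841, without embryonic replicate 3).

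Of 32 tested genes of antigen presentation 8 rose and 0 fell, against 1 and 1 on the spike-in scale. H2-T23, the nonclassical class I gene of Qa-1, stood at 12.3, 5.72, 6.3 and 12 CPM in the embryonic samples and 51.8, 40.9 and 85.8 CPM at 3 weeks, a 6.55-fold rise (adjusted p = 0.00994), and H2-DMb1, a chain that loads class II molecules, stood at 30.9, 15.5, 9.93 and 7.24 CPM in the embryonic samples and 99.3, 59.3 and 74.5 CPM at 3 weeks. Both gene families hold close copies. Of 25 interferon response genes 1 rose, a share near the 3.78% of all genes. It was Rnf213, from 17.8 ± 5.98 to 83.4 ± 22 CPM, whose call ended with all 51 samples in the fit (adjusted p = 0.123). By adjusted p, calls lost when 1 sample was left out were those of H2-T23 (adjusted p up to 0.0508, without 3-week replicate 3) and H2-DMb1 (adjusted p up to 0.0947, without 3-week replicate 1).

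Genes of phagocytosis moved in both directions in CPM. Of 33 tested members 6 rose and 5 fell, against 3.78% and 5.57% of all genes. On the spike-in scale 1 was higher and 10 lower. Fcgr1, the high-affinity IgG receptor, stood at 482, 363, 503 and 444 CPM in the embryonic samples and 1242, 1050 and 1153 CPM at 3 weeks, a 2.56-fold rise (adjusted p = 0.000662). Mertk, a receptor for apoptotic cells, stood at 377, 363, 448 and 414 CPM in the embryonic samples and 570, 834 and 916 CPM at 3 weeks, a 1.93-fold rise. Gas6, the ligand that bridges MERTK to phosphatidylserine, stood at 862, 923, 994 and 1019 CPM in the embryonic samples and 226, 238 and 229 CPM at 3 weeks, a 4.11-fold fall (log2 -2.04 ± 0.13, SE; adjusted p = 5.11e-05). Receptor and ligand thus went opposite ways on the CPM scale, and on the spike-in scale Mertk was not called (log2 0.33). Rac2, the GTPase of phagocyte actin, fell 4.39-fold, and Elmo1, which activates Rac proteins during engulfment, rose 2.73-fold. Of 17 complement genes 3 rose, among them Csmd3 and the integrin chain Itgb2, and 1 fell, a share near the 5.57% of all genes. Of the 3 chains of C1q 1 was called. C1qa stood at 2488, 2890, 2859 and 2407 CPM in the embryonic samples and 3012, 2843 and 3319 CPM at 3 weeks (adjusted p = 0.3), C1qb at 4476, 4783, 5761 and 3926 CPM in the embryonic samples and 3581, 3083 and 3526 CPM at 3 weeks (adjusted p = 0.0544) and C1qc at 2908, 3416, 3571 and 2639 CPM in the embryonic samples and 2148, 1970 and 2337 CPM at 3 weeks, the one called (adjusted p = 0.031). Whether the 3 chains differ from each other was not tested. Calls that ended without 1 of the samples were those of Mertk (adjusted p up to 0.0557, without 3-week replicate 2), Itgb2 (adjusted p up to 0.105, without 3-week replicate 3) and C1qc (adjusted p up to 0.0928, without 3-week replicate 1).

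Lysosomal genes split by protease. Of 44 tested members 5 rose and 9 fell, against 3.78% and 5.57% of all genes. Ctss, cathepsin S, stood at 3830, 3450, 3878 and 2948 CPM in the embryonic samples and 8713, 8955 and 9340 CPM at 3 weeks, a 2.55-fold rise, and Ctsh and Ctsc, the aminopeptidase cathepsin H and the dipeptidase cathepsin C, rose 3.97-fold and 3.63-fold. Ctsb, cathepsin B, stood at 13173, 14455, 16283 and 10342 CPM in the embryonic samples and 4945, 3195 and 5929 CPM at 3 weeks, a 2.89-fold fall (log2 -1.53 ± 0.22, SE; adjusted p = 0.00331), and Ctsl, cathepsin L, at 3262, 2957, 3704 and 2567 CPM in the embryonic samples and 1157, 1269 and 1449 CPM at 3 weeks, a 2.42-fold fall. Cst3, the secreted inhibitor of these proteases, stood at 7720, 7542, 10329 and 6982 CPM in the embryonic samples and 28236, 30188 and 28218 CPM at 3 weeks. All 5 rises were called on the spike-in scale too, where 18 of the 44 lysosomal genes were lower. Of 17 subunits of the vacuolar proton pump 3 fell, among them Atp6v1e1, from 154 ± 39.1 to 57.1 ± 17.5 CPM, and 1 rose, Tcirg1, from 653 ± 136 to 1165 ± 95 CPM. Among all genes 5.57% fell and 3.78% rose. By adjusted p, calls lost when 1 sample was left out were those of Atp6v1e1 (adjusted p up to 0.0722, without 3-week replicate 1) and Tcirg1 (adjusted p up to 0.0765, without 3-week replicate 3).

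**Figure D4:**
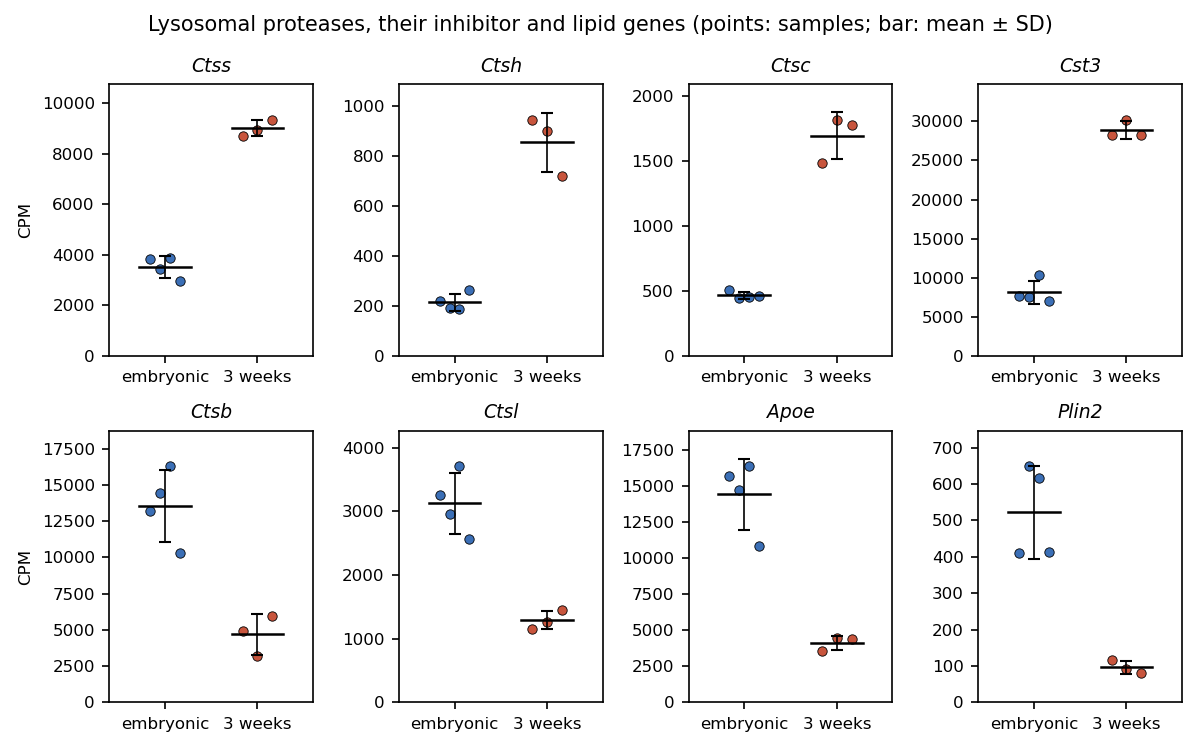
Level in CPM (y axis) of 4 genes that were higher at 3 weeks (Ctss, Ctsh, Ctsc, Cst3) and 4 that were lower (Ctsb, Ctsl, Apoe, Plin2) in the 7 samples (x axis: age); points are samples and bars the mean ± SD. The ages do not overlap in any of the 8 panels, which the naming rule required of most of these genes.

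Genes of lipid carriage and storage were among the falls. Of 53 tested lipid genes 9 fell and 4 rose, against 5.57% and 3.78% of all genes, and the median was log2 -0.03. On the spike-in scale 11 were lower and 1 higher, with a median of log2 -0.65 against -0.54 of all genes. Apoe, apolipoprotein E, stood at 15690, 14733, 16337 and 10816 CPM in the embryonic samples and 3586, 4433 and 4376 CPM at 3 weeks, a 3.48-fold fall (log2 -1.80 ± 0.15, SE; adjusted p = 0.000214), and Apoc1, its neighbour on the same chromosome, at 35.2, 33.1, 44.2 and 39 CPM in the embryonic samples and 1.02, 0.186 and 0.836 CPM at 3 weeks. Abca1 and Abcg1, which pass cholesterol to apolipoproteins, fell 2.48-fold and 3.19-fold. Plin2, which coats lipid droplets, stood at 411, 648, 618 and 412 CPM in the embryonic samples and 115, 91.9 and 81.4 CPM at 3 weeks, a 5.43-fold fall, and the desaturase gene Scd2 fell 5.27-fold. Carrier, exporters and droplet coat were thus called lower, while the list as a whole had a median near 0 in CPM. The call of Apoe ended with all 51 samples in the fit (adjusted p = 0.0846). Thrsp, a regulator of fatty acid synthesis, had 1 read in the embryonic samples and stood at 31.2, 50.8 and 52.8 CPM at 3 weeks, 2999-fold (95% counting interval 537 to 118532) higher. After thinning it was read in 0 of 174 pooled embryonic cells (a share of up to 1.72%) and 12% ± 6.3 of 3-week cells. Ch25h, cholesterol 25-hydroxylase, stood at 2.6, 0.925, 0 and 1.8 CPM in the embryonic samples and 29.9, 102 and 55.6 CPM at 3 weeks. With 1 sample left out, the call ended for Ch25h (adjusted p up to 0.0678, without 3-week replicate 2).

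Of 39 genes of iron and redox control 15 fell and 1 rose, the transferrin gene Trf, from 142 ± 17.7 to 251 ± 48.5 CPM. Among all genes 5.57% fell and 3.78% rose, so the share of rises was not above that of all genes. On the spike-in scale 20 of the list were lower and 0 higher, and Trf was not called. Ftl1, the ferritin light chain, stood at 692, 805, 754 and 748 CPM in the embryonic samples and 128, 91 and 170 CPM at 3 weeks, a 5.79-fold fall (adjusted p = 0.00023), and has near-identical copies in the genome. Hmox1, heme oxygenase 1, stood at 182, 250, 191 and 312 CPM in the embryonic samples and 43.5, 33 and 57.6 CPM at 3 weeks, a 5.23-fold fall, and the metallothionein Mt1 fell 5.2-fold. Of the 6 peroxiredoxins 4 fell and 0 rose. Gpx3, the secreted glutathione peroxidase, stood at 263, 403, 425 and 286 CPM in the embryonic samples and 0, 0 and 3.76 CPM at 3 weeks. It was read in 73% ± 10.2 of embryonic and 1% ± 1.73 of 3-week cells after thinning. Sepp1, the selenium carrier selenoprotein P, fell 1.88-fold. The call that ended without 1 of the samples was that of Trf (adjusted p up to 0.133, without 3-week replicate 3).

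Of 28 genes of neuron contact 9 rose and 1 fell, and of 53 channels and transporters 16 rose and 3 fell. The medians were log2 0.94 and 0.82. Among all genes 3.78% rose and 5.57% fell, and the falls of both lists were near or below that share. On the spike-in scale the counts were 5 higher and 4 lower for contact and 7 and 5 for transport. Nav2, a cytoskeletal guidance protein, stood at 6.77, 6.53, 8.46 and 5.67 CPM in the embryonic samples and 194, 127 and 178 CPM at 3 weeks, a 24.2-fold rise (log2 4.60 ± 0.31, SE; adjusted p = 7.84e-05), and its relative Nav3 rose 4.24-fold. Lrrc3, a leucine-rich repeat protein, stood at 4.05, 1.58, 10.2 and 9.77 CPM in the embryonic samples and 363, 181 and 144 CPM at 3 weeks, and Csmd3, a large membrane protein with complement-like domains, at 0.423, 6.64, 0.255 and 0.561 CPM in the embryonic samples and 90.1, 118 and 366 CPM at 3 weeks. Csmd3 was read in 1.67% ± 2.08 of embryonic and 36.7% ± 13.3 of 3-week cells, and 2 of 8 blank wells held a read of it. Cadm1, a synaptic adhesion molecule, rose 3.21-fold. Nav2, Nav3, Lrrc3, Csmd3 and Cadm1 were called on the spike-in scale too. The phosphate transporter gene Slc34a2 stood at 325, 619, 594 and 542 CPM in the embryonic samples and 2115, 2190 and 3187 CPM at 3 weeks, a 4.8-fold rise. Reads of Slc34a2 were also in 8 of 8 blank wells of the same plates. After thinning it was read in 100% of embryonic and 98% ± 2.05 of 3-week cells. These blank wells also held reads of other named genes, among them Gpr34 in 8 of 8 and Cst3 and Actb in 7 of 8. The part of reads not from the cells was not tested. The potassium channel genes Kcnj2 and Kcnma1 rose 9.2-fold and 6.47-fold. Clic1, a chloride channel protein, fell 2.41-fold. Slc1a3, a glutamate transporter that is also a marker of Bergmann glia, stood at 19.6, 24.1, 42.5 and 11.9 CPM in the embryonic samples and 49.5, 174 and 277 CPM at 3 weeks, and the astrocyte marker sums given above were also higher at 3 weeks. Leaving out 1 sample ended the call of Kcnj2 (adjusted p up to 0.0917, without 3-week replicate 2), Kcnma1 (adjusted p up to 0.0907, without 3-week replicate 2) and Slc1a3 (adjusted p up to 0.0831, without 3-week replicate 3).

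Of the genes of other cell types, Snap25, a synaptic protein of neurons, stood at 0, 0.218, 0.127 and 0.561 CPM in the embryonic samples and 15.5, 22.1 and 38.8 CPM at 3 weeks. After thinning Snap25 was read in 0 of 174 pooled embryonic cells (a share of up to 1.72%) and 5.4% ± 3.21 of 3-week cells. The neuron list as a whole had 1 of 6 tested members higher and 0 lower. Fabp7, a marker of radial and Bergmann glia, stood at 12, 15, 0.954 and 10.9 CPM in the embryonic samples and had 0 reads at 3 weeks. Fcna, a ficolin of border macrophages, was the only called member of 7 tested markers of those cells, from 5.94 ± 4.05 to 0.031 ± 0.0537 CPM, a read ratio of 198-fold (95% counting interval 35.3 to 7838). Ighm, the immunoglobulin mu gene, stood at 1474, 1627, 1670 and 1439 CPM in the embryonic samples and 617, 671 and 592 CPM at 3 weeks, a 2.48-fold fall, and was read in 97.7% ± 1.92 of embryonic and 67.9% ± 1.59 of 3-week cells, while 10 of the 12 lymphocyte markers stayed below 10 CPM in every sample and Cd3d and Nkg7 were at 0. Dab2 and Lyz2, which fetal macrophages express, fell 7.41-fold and 3.1-fold. The list of fetal macrophage genes moved both ways, with 7 of 40 tested members lower and 2 higher. Among all genes 5.57% were lower and 3.78% higher. On the spike-in scale 14 of the list were lower and 1 higher. By adjusted p, calls lost when 1 sample was left out were those of Fabp7 (adjusted p up to 0.065, without embryonic replicate 2) and Fcna (adjusted p up to 0.101, without 3-week replicate 1).

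Further genes with large changes stood outside these groups. Pmp22, a peripheral myelin protein, stood at 58.9, 98.4, 68.7 and 98.4 CPM in the embryonic samples and 897, 957 and 856 CPM at 3 weeks, an 11.1-fold rise (log2 3.48 ± 0.21, SE; adjusted p = 5.11e-05), and was read in 21.8% ± 3.77 of embryonic and 85.1% ± 7.7 of 3-week cells. P3h2, a collagen prolyl hydroxylase, rose 20-fold, the protease gene Adamts16 18.9-fold, Col27a1, a fibrillar collagen, 8.81-fold and the G protein regulator Rgs1 13-fold. Emid1, a secreted protein with an EMI domain, stood at 44.4, 90.2, 112 and 117 CPM in the embryonic samples and 1.81, 0 and 0.418 CPM at 3 weeks, and Sdc4, the proteoglycan syndecan 4, at 141, 176, 166 and 190 CPM in the embryonic samples and 3.62, 6.6 and 25.3 CPM at 3 weeks. Malat1, a nuclear noncoding RNA, stood at 1122, 729, 1060 and 1325 CPM in the embryonic samples and 3557, 4058 and 4044 CPM at 3 weeks, a 3.67-fold rise. On GRCm38 the genes lie as follows. Tmem119 is on chromosome 5 from base 113793729 to 113800516, Crybb1 on chromosome 5 from base 112255815 to 112269585, Ctsh on chromosome 9 from base 90054152 to 90076089 and Gas6 on chromosome 8 from base 13465374 to 13494490. Nav2 is on chromosome 7 from base 48908716 to 49610090, Pmp22 on chromosome 11 from base 63128982 to 63159547 and Ctsb on chromosome 14 from base 63122462 to 63145919.

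Spinal cord is the other region with cells of both ages, also with 4 embryonic and 3 samples of 3 weeks. The difference between the age change of cerebellum and that of spinal cord passed for 15 of 15828 genes, 0.0948% (edgeR interaction test), with 1545 at an unadjusted p under 0.05. All 15 had the lower change in cerebellum in this fit, and 9 were on the lists of mitosis, replication or nucleotide synthesis. The series took several regions from the same mice. With age and replicate number as a block 2 genes passed, Tacc3 and Aurkb (adjusted p = 0.0171 and 0.044). Same-numbered samples of both regions deviated from their group means with correlations of at most 0.04. Tacc3, with 0 reads at 3 weeks in cerebellum, stood at 177, 144, 134 and 193 CPM in embryonic spinal cord and at 23.8, 31.8 and 45.2 CPM there at 3 weeks (adjusted p = 0.00022 for the difference). Top2a kept 40.2 ± 23.3 CPM (SD, n = 3) in spinal cord at 3 weeks against 0.418 ± 0.594 in cerebellum, and Aurkb 12 ± 6.33 against 0 reads. The spinal cord cells of 3 weeks lay on a plate of their own, so region and plate cannot be told apart at that age, while the embryonic cells of both regions shared 1 plate.

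The chemokine gene Ccl9 went opposite ways in the regions. In cerebellum, in this fit of both regions, it went from 386 ± 64.1 to 188 ± 17.7 CPM (SD, n = 4 and 3; adjusted p = 0.0105 in the cerebellum comparison). With the counts as deposited that fall was not called (adjusted p = 0.0646). In spinal cord Ccl9 went from 112 ± 32 to 290 ± 107 (adjusted p = 0.0241). The difference of the changes was log2 -2.41 ± 0.37 (SE; adjusted p = 0.0231). Abhd4, a lipase of N-acyl phospholipids, went from 356 ± 57.7 to 79.9 ± 1.49 CPM in the cerebellum samples, and spinal cord from 207 ± 19 to 141 ± 33.2. With the block neither difference passed. DESeq2 called 275 genes, 165 with the higher and 110 with the lower change in cerebellum, and held all 15. With all 51 samples in the fit 1 gene passed, a predicted gene with the higher change, and 0 of the 15. Without 1 of the samples the test gave 5 to 18 genes, with 5 and 7 without cerebellum replicates 1 and 3 of 3 weeks, 8 and 7 without embryonic cerebellum replicates 1 and 2, 9 without spinal cord replicate 2 of 3 weeks and 7, 7, 7 and 6 without the embryonic spinal cord replicates.

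**Figure D5:**
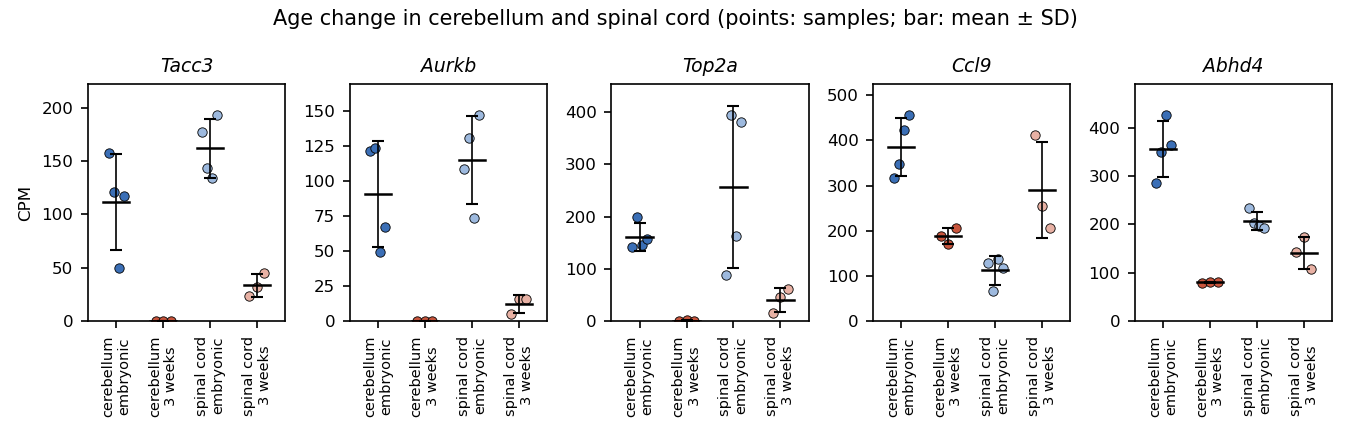
Level in CPM (y axis) of 5 genes whose age change differed between the regions, in embryonic and 3-week samples of cerebellum and spinal cord (x axis); points are samples and bars the mean ± SD. Tacc3 and Aurkb are at 0 in cerebellum at 3 weeks and above 0 in spinal cord, and Ccl9 falls in cerebellum and rises in spinal cord.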

How the data were processed

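Single microglia of CD1 mice were measured by SmartSeq2 with ERCC spike-ins. The authors deposited raw counts per gene and well, for which the submitters' processing notes name the aligner STAR (2.5.2b), the counter featureCounts (1.6.2) and the build GRCm38. A gene length column of the deposited tables, a value of another kind, was not used for any level. In plate columns 1 and 2 each well's values include those of wells whose names start alike (A10 to A19 in A1), which were subtracted. Wells with at least 500 genes and at most 20% mitochondrial counts were summed per region and replicate. Ages were compared with edgeR 4.0.16 (TMM, filterByExpr, robust quasi-likelihood test, R 4.3.3, Benjamini-Hochberg threshold 0.05, no covariate), fitting only the 7 cerebellum samples, or 14 with spinal cord for the difference between regions. CPM use the TMM library sizes. Values per cell were medians per sample, compared by exact two-sided permutation. Counting error falls as total counts rise, and PCR reads without molecular identifiers are not independent molecules, so bounds and intervals cover counting error only. Shares of cells with a read used cells thinned to 60142 counts, which 174 embryonic and 136 3-week cells reached. Upper limits of a share with 0 cells pool the cells of an age and do not cover the spread between samples or mice.

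The cells and gene lists were chosen with earlier results of these data known. Named genes were up to 4 called members of each list with the largest change (all called members for identity genes, transcription factors and fetal regulators), the 12 rises and 12 falls with the largest difference of CPM and with the largest fold change at 50 CPM or more, without overlap, and 10 genes of the region test. Not every gene of this rule is printed, and some results are not reported here. Sall1, Tgfbr2, Inpp5d, Lin28b, Lyz2, Elmo1, Fcgr1, Mertk, C1qa, C1qb, Tlr13, Il17ra, Il21r, Ifngr1, Mcm2, Mcm3, Mcm4, Mcm5, Mcm6, Mcm7, Mki67, Cdk1, Ube2c, Kif11, Cdkn1b, Hsp90b1, Abcg1, Abca1, Trf, Col27a1, Kcnma1, Slc34a2, Clic1, Cadm1 and Xist were named outside the rule, after their values were seen. Alternatives were DESeq2 1.42.0, limma-voom (limma 3.58.1), other library sizes, filters and cells, thinning, all 51 samples, a replicate block and leaving out each sample. Whether the samples of an age came from separate animals rests on the series' own description. Each embryonic sample held cells with Xist alone and cells with Y-linked reads alone, so it cannot be taken as 1 mouse. The p-values measure the spread between these samples, which for the embryonic group need not be the spread between mice.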

Additional observations from a re-analysis of the deposited data

Results flagged for a closer look

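In 5 of 167 groups of 4 embryonic values, 1 sample lay farther from its neighbours than the 95% limit of Dixon's ratio for 4 samples allows, which chance does in about 1 group of 20. Mki67 stood at 229 CPM in embryonic replicate 1 against 73 to 86.3 in the others. Ube2c stood at 19.8 CPM in embryonic replicate 3 against 83.1 to 88.3 in the others. Npm1 stood at 218.3 CPM in embryonic replicate 4 against 267 to 272 in the others. Thrsp had its 1 read, 0.0636 CPM, in embryonic replicate 3. Csmd3 stood at 6.64 CPM in embryonic replicate 2 against 0.255 to 0.561 in the others.

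The age change differed from that of spinal cord, by the edgeR interaction test, for 15 genes (adjusted p under 0.05 in each). The difference, cerebellum minus spinal cord on the log2 scale, was -11.36 for Tacc3, -10.44 for Fignl1, -8.69 for Ccnf, -10.06 for Aurkb, -9.42 for Ankle1, -8.51 for Ncapd2 and -7.74 for Zfp449. It was -6.46 for Rrm2, -5.88 for Top2a, -9.26 for Aurka, -10.11 for Fam64a, -8.96 for Spc24 and -10.21 for Cdc20. Values for genes with 0 reads at an age depend on the prior count of the fit and are no measure of size. The genes with reads in all 4 groups and the smallest differences were Ccl9, at -2.41, and Abhd4, at -1.61.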

How the results depend on the processing

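The count of 1233 genes became 2365 with DESeq2 (1212 shared), 538 with the replicate block and 208 in cells with Xist and without Y-linked reads, the last chosen after seeing the data. The cause was not tested, except that the last setting has fewer cells. Same-numbered samples deviated together with correlations of only 0.02, 0.01 and 0.01, so the numbers were not taken to pair the samples and the block of the main comparison is given here only. Leaving out 1 sample gave 731 to 871 genes. The other settings gave 849 to 1657, limma-voom with 607 higher and 606 lower, and spike-in library sizes with 153 and 1392. With those the values of Csf1r, Sall1 and C1qa turned to -0.15, -0.19 and -0.39. Of 158 called genes of the text that were tested, spike-in sizes ended 37 calls, all 51 samples 32, the block 41 and DESeq2 0. The Xist setting ended 82 of 151 and removing cycling cells 26 of 156. Calls lost with all 51 samples included those of Apoe, Lyz2, Dab2, Csf1, Igf2bp3, Hmox1, Mcm2, Mcm3, Mcm5 and Mcm6. The test against spinal cord, with 15 genes, called 275 with DESeq2 (15 shared), 9 with counts as deposited, 3 without plate columns 1 and 2, 2 with the replicate block (all shared), 1 with all 51 samples (0 shared, opposite direction) and 5 to 18 when 1 sample was left out. With counts as deposited the difference in detected genes was -1870 (exact permutation p = 0.0571) and that in gene counts per spike-in count log2 -0.882 (p = 0.0571). The mean over cells gave a mitochondrial difference of -2.7 points (exact permutation p = 0.0286). Without 1 sample the differences were -1067 to -1206 genes, log2 -1.07 to -1.2 and -2.15 to -2.76 points, where no p under 0.0667 is possible. Depth limits genes with few reads: a gene with 0 reads is bounded at 0.0438 CPM in embryonic and 0.0908 CPM in 3-week samples.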
